A study of Rattus norvegicus with 9 samples.

Results

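The Hedgehog pathway genes described here are Gpr161, Shh, Ptch1, Smo, Gli1, Gli2, Gli3, Sufu, Gas1 and Boc, 10 in all, taken as every probe set whose platform annotation gives 1 gene symbol equal to one of these names. This rule found 10 of the array's 31099 probe sets, and they cover 8 of the 10 genes, out of 14217 gene symbols on the array. Gpr161 and Smo have a pair of probe sets each, while Ptch1 and Gli3 have no probe set under their symbol and are not analysed here. The set was chosen by the intensities of Gpr161 in mutant and wild-type pools, which differed in an earlier pass over the same arrays. Differences between these groups are therefore given as a description, with no test.

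Rat embryos were taken at embryonic day 14, and total RNA from their ventral spinal cord was hybridised to 9 Affymetrix arrays. Each array carried a pool of 5 embryos, so that differences between single embryos are averaged within a pool and n counts pools. The 4 mutant pools carried human SOD1 (hSOD1) with the G93R substitution, marked Roth in the titles, and the 4 wild-type pools carried unmutated hSOD1, marked Chan. SOD1 is a superoxide dismutase whose mutations cause an inherited form of the motor neuron disease amyotrophic lateral sclerosis. The negative control was 1 pool titled SDneg, with no replicate; its description names it a negative control but also speaks of positive embryos. A tag, le2, ends the titles of 6 arrays (replicates 2, 3 and 4, mutant and wild-type) and is absent from the other 3; what it stands for was not determined. The promoter of each transgene and the number of founder lines are not given in the labels. Mutation, rat line and insertion site cannot be told apart in this design.

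In the neural tube, the ligand Sonic hedgehog (Shh) is made by the notochord and floor plate and spreads dorsally. It binds the receptor Ptch1, helped by the co-receptors Gas1 and Boc, and this releases Smo to act in the primary cilium. There the signal acts on transcription factors of the Gli family (Gli1, Gli2 and Gli3), which Sufu holds back. Gli2 is the main activator and Gli1 is itself a target gene. The family sets the ventral progenitor domains from which motor neurons arise. Gpr161 is an orphan receptor of the cilium that keeps the pathway off by raising cAMP and thereby protein kinase A.

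Gpr161 is the gene on which the results turn, so the stretch before its first annotated start in the RefSeq annotation of GRCr8 is shown, with capitals marking the GC box letters GGGCGG. The annotation gives 2 start sites for the gene, and neither probe set can be assigned to one of them here. The window is chr13:80111021-80111270, plus strand, and holds the 250 bases before the start.
Gpr161: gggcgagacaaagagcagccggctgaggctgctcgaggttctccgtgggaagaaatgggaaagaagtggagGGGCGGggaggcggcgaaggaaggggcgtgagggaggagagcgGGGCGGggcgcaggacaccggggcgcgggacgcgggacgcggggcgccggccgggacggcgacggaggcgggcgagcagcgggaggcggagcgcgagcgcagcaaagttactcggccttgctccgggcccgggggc
GGGCGG occurred 2 times in these bases and its reverse complement CCGCCC 0 times, in a stretch that is 74.8% G or C. On either strand, GGGCGG was in 33.1% of all 33469 RefSeq windows of 300 bases around start sites. The letters GACCACCCA, the core that GLI proteins bind, were in 0.385% of those windows on either strand. They were absent from both windows of Gpr161. Of the 7 genes described here that had a window, Ptch1 alone held them. These matches describe letters in a window and say nothing of binding.

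The first Gpr161 probe set (1384546_at) separated mutant from wild-type pools. Its intensity on the authors' linear scale was 562, 528, 686 and 681 in mutant replicates 1 to 4. It was 1119, 1147, 836 and 905 in wild-type replicates 1 to 4, and 649 in the negative control. Every mutant pool lay below every wild-type pool, and the negative control lay inside the mutant range. The means were 614 ± 81.3 in mutant and 1002 ± 155 in wild-type pools (SD, n = 4 each), a log2 difference of −0.69 (SE 0.12), that is a mutant level lower by 1.62-fold on the log2 scale with a pseudocount of 8.25. This difference led to the choice of the genes and is given as a description. Of 18625 probe sets tested, 40 (0.215%) had a difference as low or lower, and 231 (1.24%) had all mutant pools below all wild-type pools, while 319 (1.71%) had the reverse. By limma at an adjusted p under 0.05, 3 probe sets (0.0161%) passed in this comparison, and 918 (4.93%) had an unadjusted p under 0.05. No probe set described here was among the 3. This is not read as a test of Gpr161, since its difference chose the genes. The count of 3 fell to 1 without mutant replicate 1, without wild-type replicate 1 or without wild-type replicate 3.

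**Figure D1:**
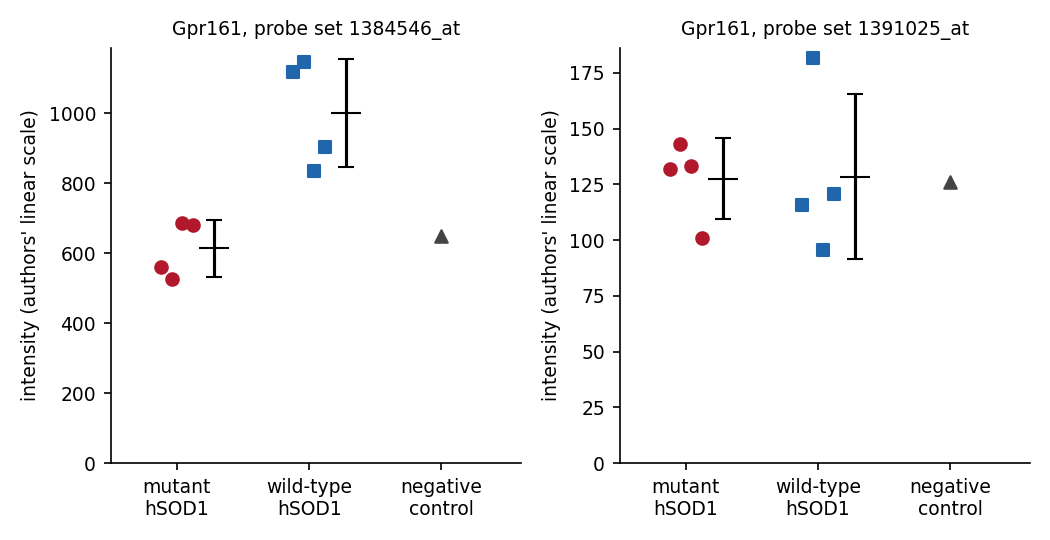
Intensity of both Gpr161 probe sets in each pool (y axis, authors' linear scale, from 0) by group (x axis); points are pools, and the black dash with its bar is the mean ± SD of 4 pools. On 1384546_at the mutant pools (528 to 686) lie below the wild-type pools (836 to 1147) and the negative control is at 649, while on 1391025_at all groups overlap.

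The second Gpr161 probe set (1391025_at) did not show this pattern. Its intensity was 132, 143, 133 and 101 in mutant replicates 1 to 4, 116, 182, 95.7 and 121 in wild-type replicates 1 to 4, and 126 in the negative control. The groups overlapped throughout, and wild-type replicates 2 and 3 held both the highest and the lowest value of all 9 pools. Means were 127 ± 18.2 in mutant and 129 ± 37.1 in wild-type pools (SD, n = 4 each), and the log2 difference was 0.01 (SE 0.17). The Pearson correlation between the 2 probe sets' log2 values over the 9 arrays was 0.10, a description over arrays that fall into groups. The annotation lists a source accession for 1391025_at and an empty field for 1384546_at, so the link of the latter to Gpr161 rests on the annotated symbol and gene identifier alone. Which transcript end each probe set reads could not be determined, since probe sequences were not used here.

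At 1384546_at the wild-type pools lay above the negative control and the mutant pools around it. All 4 wild-type pools lay above the negative control, a position shared by 16.8% of tested probe sets. The log2 difference was 0.61 (SE 0.19), given as a description with no test. Mutant pools differed from the negative control by −0.09, given in the same way. At 1391025_at the differences from the negative control were −0.01 for wild-type pools (95% interval −0.59 to 0.58) and 0.01 for mutant pools (95% interval −0.58 to 0.59). Both sets of differences share the single control pool, and the mutant and wild-type pools entered the comparison that chose the gene. By limma 0 of 18625 probe sets (0%) passed in either comparison, with 797 (4.28%) for wild-type and 427 (2.29%) for mutant pools at an unadjusted p under 0.05.

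Of 2 ratios that bear on RNA quality, that of beta-actin separated mutant from wild-type pools and that of GAPDH nearly did. The beta-actin 3'/5' intensity ratio lay between 6.98 and 7.98 in mutant pools, between 8.19 and 19.2 in wild-type pools, with the negative control at 6.66. The GAPDH 3'/5' ratio lay between 2.49 and 2.587 in mutant pools and between 2.585 and 3.56 in wild-type pools. Only the lowest wild-type pool lay inside the mutant range, and the others lay above it. The negative control, at 2.68, also lay above all mutant pools. The pools with the highest Gpr161 signal on 1384546_at, wild-type replicates 1 and 2, also had the highest beta-actin ratios, 9.20 and 19.2. With the log2 beta-actin ratio as a covariate the mutant minus wild-type difference was −0.57 at 1384546_at and 0.33 at 1391025_at. Without wild-type replicate 2 the difference at 1384546_at was −0.63, and among arrays with the le2 tag alone it was −0.60.

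**Figure D2:**
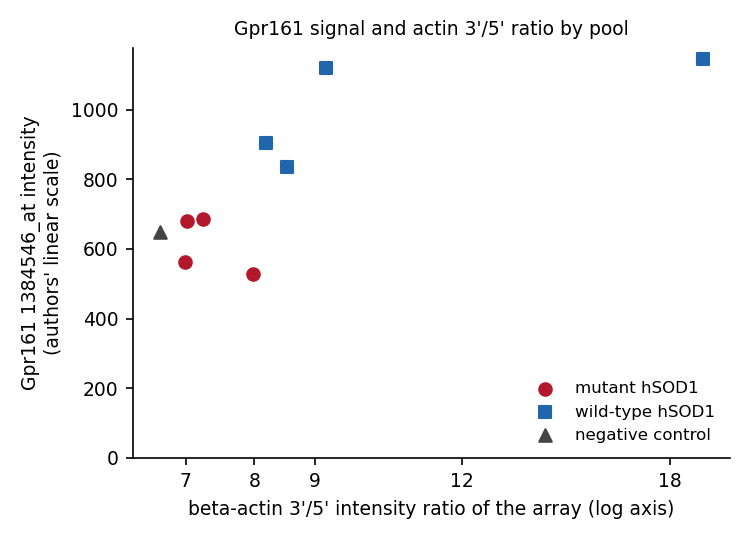
Intensity of Gpr161 1384546_at (y axis, authors' linear scale, from 0) against the beta-actin 3'/5' intensity ratio of the same array (x axis, log scale); each point is 1 of the 9 pools. Mutant pools and the negative control sit at ratios of 6.66 to 7.98 and intensities of 528 to 686, and wild-type pools at ratios of 8.19 to 19.2 and intensities of 836 to 1147.

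Smo, the transmembrane protein that passes the Hedgehog signal into the cell, was above the filter on 1 of its probe sets. The filter kept probe sets whose mean log2 value lay above the 40th percentile, a mean intensity of about 17.3. On 1389475_at the intensity of Smo was 28.7, 27.6, 24.4 and 42.2 in mutant replicates 1 to 4. It was 26.9, 23.7, 25.2 and 22.5 in wild-type replicates 1 to 4, and 16.3 in the negative control. Mutant replicate 4 was the highest pool and the negative control the lowest, with all 8 transgenic pools above it, as at 9.19% of tested probe sets. Transgenic pools had a mean of 27.6 ± 6.26 (SD, n = 8) and differed from the negative control by 0.53 on the log2 scale (SE 0.25, 95% interval −0.01 to 1.07, limma adjusted p = 1.00). By limma 0 of 18625 probe sets (0%) passed in this comparison, and 581 (3.12%) had an unadjusted p under 0.05. The pseudocount bears on so low a signal: with 33.0 in place of 8.25 the difference was 0.29. Mutant and wild-type pools overlapped, at a log2 difference of 0.23 (SE 0.17), which was 0.10 without mutant replicate 4.

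The other Smo probe set (1370143_at) lay below the filter. Its intensity was 11.5, 10.4, 10.9 and 12.6 in mutant replicates 1 to 4, 5.13, 5.41, 8.72 and 16.0 in wild-type replicates 1 to 4, and 12.9 in the negative control. All mutant pools and 3 of the 4 wild-type pools were below the negative control here, the opposite side from 1389475_at.

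Gli2, the main activator among the Gli factors in the ventral neural tube, was the third gene above the filter. On 1390233_at its intensity was 11.6, 26.7, 23.5 and 19.8 in mutant replicates 1 to 4, 27.4, 16.8, 26.7 and 28.1 in wild-type replicates 1 to 4, and 18.1 in the negative control. The groups overlapped, with the lowest mutant value in replicate 1 and the lowest wild-type value in replicate 2. The log2 difference of mutant from wild-type pools was −0.22 (SE 0.20), and it was −0.05 without mutant replicate 1, −0.35 without wild-type replicate 2 and −0.01 among tagged arrays. Transgenic pools differed from the negative control by 0.20 (95% interval −0.46 to 0.86, limma adjusted p = 1.00), and by 0.01 with the tag as a covariate.

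**Figure D3:**
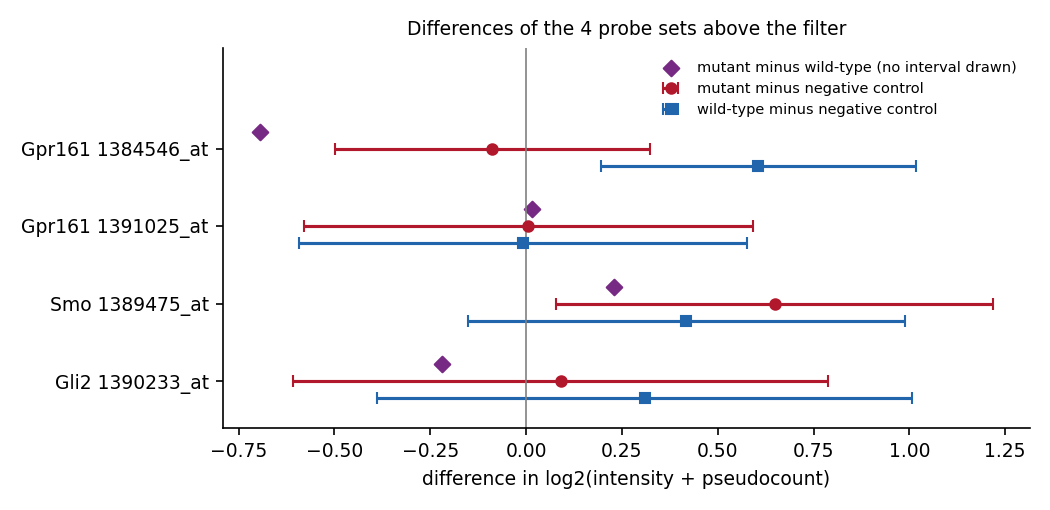
Difference in log2(intensity + pseudocount) (x axis) for the 4 probe sets above the filter (y axis); circles and squares with 95% intervals of limma's moderated estimate compare mutant and wild-type pools with the 1 negative control, and diamonds give mutant minus wild-type pools with no interval, since that contrast led to the choice of genes. For Gpr161 1384546_at the square is at 0.61 and the circle at −0.09. The mutant and wild-type values of this probe set entered the choice of genes, so its intervals are not read as a test. No interval shown belongs to an adjusted p under 0.05.

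Shh itself was near the bottom of the scale on its single probe set (1387584_at). It was listed between 1.07 and 1.53 in the 4 mutant pools, between 0.625 and 2.50 in the 4 wild-type pools and at 1.54 in the negative control. Gli1, a direct target that serves as a readout of the pathway, was listed on 1378720_at between 0.972 and 2.75 in mutant pools, between 0.734 and 1.86 in wild-type pools, with the negative control at 1.79. These values are all under the pseudocount and were not tested. They do not show whether the transcripts were present, since a probe set can fail to read a transcript that is there. Detection calls for these arrays were not used here.

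The co-receptors and the Gli inhibitor were low as well. Gas1, a membrane-anchored co-receptor of Shh, was listed on 1398419_at between 4.38 and 6.95 in mutant pools, between 2.88 and 10.7 in wild-type pools, with the negative control at 7.17. Boc, a co-receptor of the immunoglobulin superfamily that also guides commissural axons, lay on 1389095_at between 7.33 and 18.6 in mutant pools, between 7.70 and 34.2 in wild-type pools, with the negative control at 13.3. Its single pools thus crossed the filter level while its mean stayed below it. Sufu, which binds Gli proteins in the cytoplasm, varied widely within a group. On 1385042_at its intensity was 1.20, 10.0, 13.7 and 18.6 in mutant replicates 1 to 4, 20.1, 1.06, 12.9 and 23.1 in wild-type replicates 1 to 4, and 21.8 in the negative control. A single pool of each transgenic group stood near 1, and the other pools lay between 10.0 and 23.1. All 3 genes overlapped between mutant and wild-type pools. In all, 4 of the 10 probe sets, of 3 genes, passed the filter and 6 did not.

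**Figure D4:**
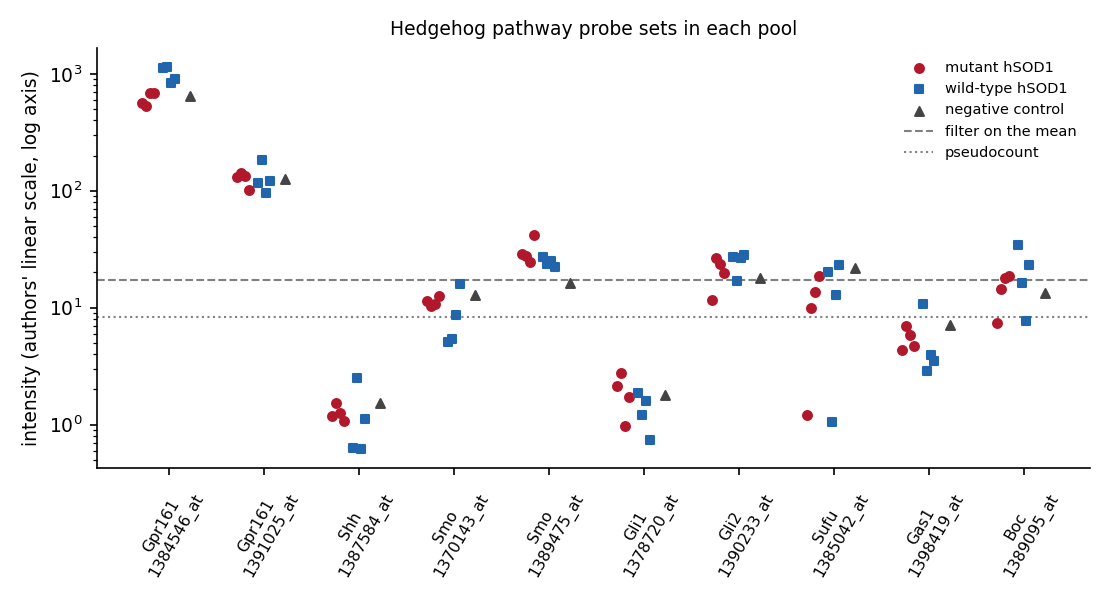
Intensity of the 10 Hedgehog pathway probe sets (x axis) in every pool (y axis, authors' linear scale, log axis), with mutant pools as circles, wild-type pools as squares and the negative control as a triangle; the dashed line is the filter on the mean (17.3) and the dotted line the pseudocount (8.25). Both Gpr161 probe sets lie far above the filter, 1 Smo probe set and Gli2 just above it, and Shh and Gli1 below the pseudocount in every pool.

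Just inside the filter stood Gli2, with a mean of 22.1 over the 9 pools, and just outside it Boc, with 17.0. Among the 4 probe sets above the filter, the correlations of log2 values over the 9 arrays ran from −0.36 (Gpr161 1391025_at with Gli2) to 0.29 (Gpr161 1384546_at with Gli2). These are descriptions over arrays that share groups.

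Other genes of the pathway were read from 5 lists of 94 genes, of which 72 had a probe set and 61 had 1 above the filter (the probe set with the highest mean represents a gene). Between mutant and wild-type pools 30 were higher and 31 lower in mutant pools, with a median log2 difference of 0.00. Over all tested probe sets 53.7% were higher and the median was 0.01. By limma 0 of the 61 passed in either direction, against 0.0161% of all probe sets. An unadjusted p under 0.05 was found for 3 of the 61 and for 4.93% of all tested probe sets. The mutant and wild-type pools did not overlap at 0 of the 61, where 2.95% of all tested probe sets had no overlap. Against the negative control 29 were higher and 32 lower with a transgene, with a median of −0.04 beside −0.02 for all tested probe sets. By limma 0 passed, and 0 had an unadjusted p under 0.05, beside 0% and 3.12% of all tested probe sets. All 8 transgenic pools were above the control at 4 genes and below it at 6, where 9.19% and 10.5% of all tested probe sets were.

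Ligands, their release and their reception were covered by 5 genes above the filter of 13 listed, 1 higher and 4 lower in mutant than in wild-type pools. The 3 brightest were Gpc3, a glypican that binds Hedgehog ligands, at 105 ± 24.0 in the mutant and 87.5 ± 7.57 in the wild-type group and 84.5 in the control pool, followed by Gpc6 and Lrp2. Gpc6, another glypican, was 83.8 ± 13.1, 86.5 ± 13.6 and 99.6 in the same order. Lrp2, an endocytic receptor that takes up Shh, was 64.3 ± 17.7, 68.2 ± 4.02 and 62.7. Hhip, a decoy receptor and target gene of the pathway, named for that role after its values were seen, was below the filter, between 0.523 and 7.31 over the 9 pools.

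In signal transduction, where Gpr161 acts, 20 of 26 genes were above the filter, 9 higher and 11 lower in mutant pools. Protein kinase A, casein kinases and ubiquitin ligase parts that process Gli proteins were among them, as were arrestins and adenylyl cyclases. Prkar1a, a regulatory subunit of protein kinase A, averaged 3201 ± 201 in the mutant and 3335 ± 363 in the wild-type group, with 3153 in the control pool. Prkacb, a catalytic subunit of the same kinase, was 2592 ± 161, 2620 ± 119 and 2727 in the same order. Csnk1d, a casein kinase, was 2375 ± 53.8, 2353 ± 170 and 2267. The groups lay within their spread for these 3, at log2 differences of −0.06, −0.02 and 0.02 of mutant from wild-type pools.

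All 26 ciliary trafficking genes with a probe set (of 32 listed) were above the filter, 15 higher and 11 lower in mutant pools, with a median log2 difference of 0.01. Kifap3, the adaptor of the kinesin that drives transport into the cilium, averaged 1653 ± 83.2 in the mutant and 1671 ± 153 in the wild-type group, with 1751 in the control pool. Kif3b, a motor subunit of that kinesin, was 620 ± 50.0, 592 ± 52.5 and 626 in the same order. Ift81, part of the transport complex that carries tubulin, was 507 ± 18.4, 520.0 ± 23.0 and 571. All 8 transgenic pools lay below the control on this probe set, as at 10.5% of all tested probe sets. Tulp3, which brings Gpr161 into the cilium, was 126 ± 20.6, 132 ± 8.73 and 147, and is added here for that role after its values were seen. On another Ift81 probe set above the filter, wild-type replicates 1 and 3 (60.8 and 63.7) lay above the control (58.6). The other transgenic pools lay below it there. On the dimmest Kifap3 probe set all 8 transgenic pools lay above the control (151), as at 9.19% of all tested probe sets. Their log2 difference from the control was 0.54 there, but −0.16 and −0.08 on the brighter Kifap3 probe sets. No gene of this list separated mutant from wild-type pools, where 2.95% of all tested probe sets did.

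Genes that Hedgehog signalling switches on or off along the dorsoventral axis were above the filter at 7 of 18, 3 higher and 4 lower in mutant pools. Irx3, an intermediate and dorsal factor repressed by Shh, averaged 176 ± 15.6 in the mutant and 176 ± 15.7 in the wild-type group, with 165 in the control pool. Nkx6-1, a ventral factor induced by Shh, was 145 ± 32.9, 170 ± 6.03 and 174 in the same order, and its relative Nkx6-2 was 140 ± 28.7, 114 ± 43.1 and 157. The floor plate factor Foxa2 and the motor neuron progenitor factor Olig2 were below the filter, with ranges over the 9 pools of 2.64 to 16.4 and 1.40 to 10.5; these 2 were named for their roles after their values were seen. Among 5 cell division targets 3 were above the filter. Mycn, a transcription factor of dividing progenitors, averaged 288 ± 24.6 in the mutant and 261 ± 26.7 in the wild-type group, with 290 in the control pool. Ccnd1, a cyclin that drives entry into the cell cycle, was 33.0 ± 11.4, 20.7 ± 21.1 and 29.8 in the same order, and its relative Ccnd2 19.7 ± 5.01, 23.6 ± 13.0 and 14.2. The log2 difference of mutant from wild-type pools was 0.73 for Ccnd1 (SE 0.39) and −0.12 for Ccnd2 (SE 0.27). Mutant and wild-type pools overlapped for both cyclins, and Ccnd1 ran from 4.56 to 50.6 within the wild-type pools.

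**Figure D5:**
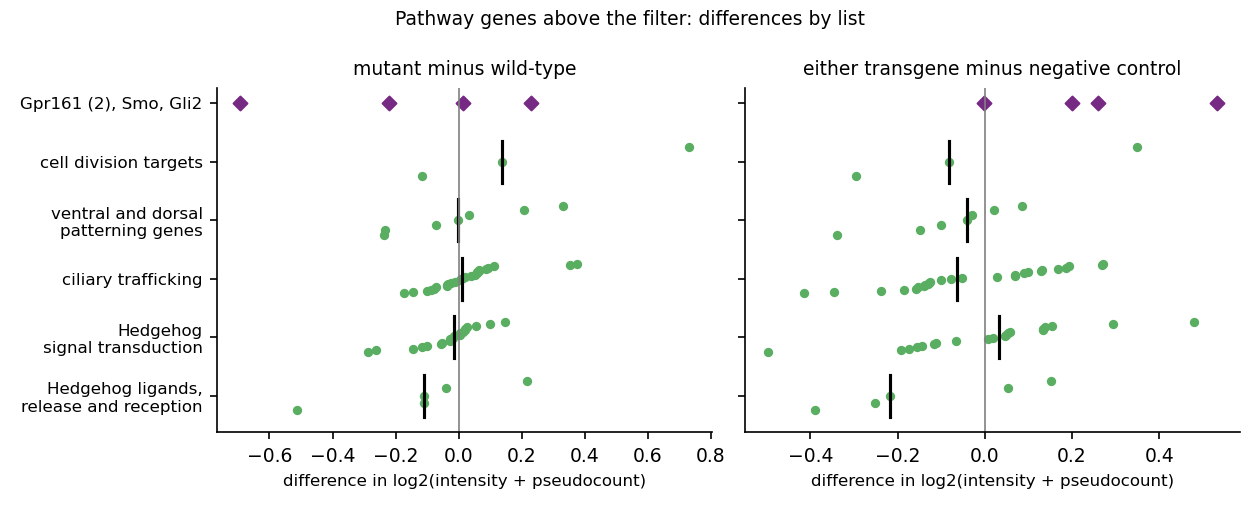
Difference in log2(intensity + pseudocount) (x axes) of each pathway gene above the filter, by list (y axis), for mutant minus wild-type pools (left) and either transgene minus the negative control (right); green points are genes, black lines the medians of the lists, and diamonds the 4 probe sets of Gpr161, Smo and Gli2. In the left panel the diamond at −0.69 is Gpr161 1384546_at, whose difference led to the choice of genes, so its place beside the listed genes is not read as a result. The listed genes ran from −0.51 to 0.73.

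The labelled tissue was checked against marker lists. All 6 neuronal markers were above the filter, with summed intensities of 16422 to 18342 in mutant pools, 16567 to 18299 in wild-type pools, with the negative control at 18071. Motor neuron markers with a probe set were above it at 5 of 5 (1181 to 1841, 944 to 1416 and 1340) and sensory ganglion markers at 4 of 6 (5173 to 7712, 4962 to 5545 and 5062). Between mutant and wild-type pools 4 of the 5 motor neuron markers were higher in mutant pools and 1 lower, with a median log2 difference of 0.29, and 4 of the 4 sensory ganglion markers were higher, with a median of 0.26, beside 0.01 over all tested probe sets. None of these 9 markers passed limma's adjusted threshold, which 0.0161% of all tested probe sets passed. Isl1 (0.45), Runx1 (0.64) and Sncg (0.34) had an unadjusted p under 0.05, as had 4.93% of all tested probe sets. Neural progenitor markers were above the filter at 5 of 7, with sums of 910.1 to 1520.4 in mutant pools and 964 to 1407 in wild-type pools, all above the 871 of the negative control. Of the 5, 4 were higher and 1 lower with a transgene than in the negative control. All 8 transgenic pools were above the control at 1 of the 5, beside 9.19% of all tested probe sets. This marker was Fabp7, at 149 in the negative control and between 161 and 681 in the transgenic pools. Fabp7, Isl1, Runx1 and Sncg were named after their values were seen. Roof plate and dorsal cord markers were above it at 2 of 2 (34.3 to 87.6, 42.5 to 71.6 and 51.3), and notochord markers at 1 of 3 (43.5 to 56.3, 53.1 to 67.2 and 57.0), carried by Chrd while Shh and Foxa2 were not. Floor plate markers, the cells that make Shh, were above it at 3 of 4, with sums of 769.8 to 930 in mutant pools, 776 to 1037 in wild-type pools, with the negative control at 787, carried by Spon1, Slit2 and Ntn1 while Foxa2 was not. Markers of mesenchyme were above it at 1 of 9, of cartilage at 1 of 5, of endothelium at 1 of 4, of muscle at 2 of 5, and of blood, Schwann cells and microglia at 0 of 3, 0 of 3 and 0 of 5. The part of these cell types in the Gpr161 difference was not tested. In pooled tissue, fewer cells of a type and less RNA per cell cannot be told apart.

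The genes whose pattern over the 9 arrays was most like that of Gpr161 1384546_at were Sorl1 (Pearson r = 0.96), which codes for a sorting receptor, Fzd3 (0.95), a Wnt receptor of axon guidance, and Fubp3 (0.94). Fzd3 was 68.5, 62.5, 77.1 and 73.9 in mutant replicates 1 to 4, 89.4, 87.4, 85.8 and 83.6 in wild-type replicates 1 to 4, and 74.3 in the negative control. As with Gpr161, mutant pools lay below wild-type pools and the control among the mutant pools; the search for a like pattern selects for this. Most like 1391025_at were Ash2l (0.94), Cep170b (0.92) and Ankrd17 (0.92), all different genes. For Shh and Gli1, whose values lie under the pseudocount, the nearest were Mb21d2 (0.97), Ifrd2 (0.95) and Twnk (0.95), and Zfp212 (0.91), Irs2 (0.88) and B2m (0.87).

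Along the chromosome, the 5 nearest tested genes on each side of Gpr161 in the gene table of GRCr8 were read as well. Of these 10 genes 6 were higher and 4 lower in mutant than in wild-type pools, where 53.7% of all tested probe sets were higher. Their log2 differences ran from −0.20 (Nme7) to 0.30 (Blzf1). The groups did not overlap at 0 of 10, beside 2.95% of all tested probe sets. Whether chromosomal position bears on the Gpr161 difference was not tested. The direct neighbours Tiprl and Dcaf6 differed by −0.07 and 0.14.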

How the data were processed

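The table deposited by the authors gives linear intensities, 1 for each probe set in each array; their software was not named in the labels. Scaling of the arrays by the authors was read from the values: the lowest mean of an array was 150.05 after trimming 2% at each end, and medians ran from 31.0 to 33.9. No further normalization was added. Of 31099 probe sets, 57 Affymetrix controls served only for the 3'/5' ratios. Symbols came from the platform annotation (20826 probe sets with 1 symbol, 436 with several, 9780 with none), and the gene identifiers of the 8 Hedgehog genes found were all in the RefSeq table. Promoter windows and gene order came from RefSeq, assembly GRCr8.

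Intensities were taken to log2 after adding 8.25, the 25th percentile of the whole table. The 18625 probe sets with a mean log2 value above the 40th percentile were tested with limma 3.58.1 in R 4.3.3 (intensity trend, Benjamini-Hochberg over all 18625, threshold 0.05). The mutant and wild-type groups were set against each other on 8 arrays; comparisons with the negative control used all 9 and assume that it varies like the transgenic pools. Fold changes are on the log2(intensity + 8.25) scale and understate those of dim probe sets. The fit was tested on simulated data. For arrays, their number limits the precision. P-values set a difference against limma's estimate of the spread between transgenic pools. The negative control, a single pool, adds nothing to that estimate.

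Every probe set of the 10 genes was described. From each pathway list the 3 genes with the highest mean were named, and for Gpr161, Shh and Gli1 the 3 genes with the highest Pearson correlation. Genes and lists were chosen with earlier results of these data known. Alternatives changed the normalization, pseudocount, filter, variance model, covariates and arrays used.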

Additional observations from a re-analysis of the deposited data

Results flagged for a closer look

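Of 24 groups of 4 pools examined for a pool far from the others (10 probe sets and 2 ratios, in mutant and wild-type pools), 3 stood out, where chance gives about 1 in 20. Gli2 (1390233_at) was 16.8 in wild-type replicate 2, while the other 3 wild-type pools lay between 26.7 and 28.1. Gas1 (1398419_at) was 10.7 in wild-type replicate 1, with the other 3 between 2.88 and 3.91, a range around and under the pseudocount. The beta-actin 3'/5' ratio was 19.2 in wild-type replicate 2, with the other 3 wild-type pools between 8.19 and 9.20. The same array, wild-type replicate 2, thus gave the Gli2 and the actin value, and it also had the highest level of Gpr161 on both probe sets.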

How the results depend on the processing

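The difference of Gpr161 1384546_at between mutant and wild-type pools, −0.69, ran from −0.78 to −0.57 over 21 alternatives and from −0.78 to −0.63 without any 1 array; several alternatives leave the estimate as it was, and since the groups do not overlap, leaving out 1 array cannot turn its sign. Probe sets past the threshold between mutant and wild-type pools numbered 3; with median centring there were 5, without a filter, with a filter at the 60th percentile or with the le2 tag as a covariate 1, and without trend, with the actin ratio as a covariate or among tagged arrays 0 (993, 680 and 682 at an unadjusted p under 0.05 in limma). Leaving out 1 array gave 1 to 3, with 1 without mutant replicate 1, wild-type replicate 1 or wild-type replicate 3. Against the negative control the count of 0 became 1 with median centring (either transgene and wild-type), with a pseudocount of 2.06 (either transgene, mutant and wild-type) and without wild-type replicate 1 (either transgene and wild-type), a range of 0 to 1 when 1 array was left out (0 for mutant pools). Gpr161 1391025_at, at −0.0010 for either transgene against the negative control, turned to 0.016 with quantile normalization, 0.028 with median centring, and 0.0021 with a pseudocount of 33.0, ran from −0.086 to 0.059 when 1 array was left out, and was −0.24 with the actin ratio as a covariate; the cause was not tested. Same-numbered mutant and wild-type arrays correlated at 0.12, 0.09, −0.07 and 0.20 in their departures from the group means. The highest correlation of each mutant array with a wild-type array of another number was 0.10, 0.21, 0.08 and 0.05. The same number was thus closest for replicates 1 and 4 but not for 2 and 3, and the numbers were not taken as pairs. With the replicate number as a block, 3 probe sets passed again, and the Gpr161 1384546_at difference was −0.69. In limma 1211 probe sets then had an unadjusted p under 0.05, against 918 without the block. The medians of the pathway lists moved by less than the spread between pools, from −0.04 to 0.03 between mutant and wild-type pools and from −0.08 to −0.01 against the negative control. The low signal of Shh, Gli1, Gas1, Sufu and Boc, under or near the pseudocount, limits what can be said of them.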
